A study of Mus musculus with 6 samples.

Results

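The 30 genes described here make, move and sense cholesterol: 18 encode enzymes of sterol synthesis, 5 form the SREBP control circuit, 1 encodes a sterol carrier, and 6 serve uptake, efflux, esterification and LXR signalling. They were taken by name from a deposited table of 55335 gene rows, and each name matched 1 row. All 30 passed the low-count filter and lay among the 14107 genes tested. The libraries came from intestinal tissue of 6 mice with dextran sulfate sodium (DSS) colitis. DSS is a polymer that injures the gut epithelium, and both groups had received it. The groups were 3 mice labelled Trmt6-/- (libraries KO72, KO73 and KO75) and 3 wild-type (WT) mice (WT185, WT186 and WT187). Trmt6 encodes the non-catalytic subunit of a tRNA methyltransferase. How the allele was made, strain, age, DSS dose and gut segment are not given in the sources used here, and no library without DSS was analysed here.

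Libraries labelled Trmt6-/- held 15213972 to 16479870 counts each, and WT libraries 16024317 to 16972758. Levels are CPM, read counts scaled to library size after TMM, given in the order KO72, KO73, KO75 and WT185, WT186, WT187, and log2 fold changes are estimate ± SE of the libraries labelled Trmt6-/- over WT. Trmt6 itself was not lower under the Trmt6-/- label. It stood at 39.8 (KO72), 34.2 (KO73) and 36.2 CPM (KO75), against 30.9 (WT185), 18.7 (WT186) and 23.1 CPM (WT187) (log2 fold change 0.60 ± 0.21, adjusted p = 0.335), with no overlap and the higher values in the libraries labelled Trmt6-/-. Because the allele is not described, counts over the whole gene cannot check the labels. Every direction below therefore rests on the labels alone. Markers of small intestinal absorptive cells were abundant in all 6 libraries, whereas the colon gene Hoxb13 had no count. The 8 absorptive markers summed to 26704, 42993 and 37775 CPM under the Trmt6-/- label, against 15840, 42317 and 29068 CPM in WT. Markers of position along the gut also differed between libraries. A regional index, the mean log2 CPM of 4 ileal genes minus that of 4 proximal genes, came to 0.61 (KO72), -1.004 (KO73) and -3.67 (KO75), against -1.69 (WT185), -7.41 (WT186) and -6.04 (WT187). WT185 thus had the highest index of the WT libraries and was the poorest of the 6 in absorptive markers. The genes of the index did not all agree. Among WT libraries, WT185 was highest for ileal Fabp6 and Slc10a2 and lowest for proximal Gata4, Lct and Fabp1. Ileal Slc51b was higher in WT186 (54.0 CPM) than in WT185 (46.4 CPM), and ileal Fgf15 in WT187 (3.54 against 0.261 CPM). Proximal Cybrd1 was lowest in WT187. What sets the index was not tested.

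Cells make cholesterol from acetyl-CoA through mevalonate, squalene and lanosterol. When sterol in the endoplasmic reticulum is low, the escort protein SCAP carries SREBP factors to the Golgi, where proteases release the part that enters the nucleus and, often together with the CCAAT-binding factor NF-Y, raises transcription of the synthesis genes. INSIG proteins hold SCAP back when sterol is plentiful. The absorptive epithelium of the small intestine also takes up sterol from the lumen through NPC1L1, returns it through ABCG5 and ABCG8, and esterifies it with the enzyme encoded by Soat2. The nuclear receptor LXR, of which Nr1h3 encodes the alpha form, raises the efflux genes when oxysterols accumulate.

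Transcripts of most synthesis enzymes stood higher in the libraries labelled Trmt6-/-, and in those of uptake and efflux the groups overlapped. Of the 18 synthesis genes, 16 had a log2 fold change above 0, against 46.1% of all genes tested. Their median was 0.97, where the median of all genes tested was -0.03. The 3 libraries labelled Trmt6-/- lay above all 3 WT libraries for 10 of the 18, or 55.6%, a separation found for 9.70% of all genes tested. With Insig2 and Stard4 that made 12 of the 30 members, and none separated in the other direction (9.03% of all genes). No member passed an adjusted p of 0.05 in edgeR, a threshold that 0.0425% of all genes passed in either direction, whereas an unadjusted p below 0.05 was reached by 10 of the 18 with the higher values under the Trmt6-/- label (6.15% of all genes) and by none with the lower ones (5.94%). Without WT185, 14 of the 30 members were higher (7.58% of all genes) and 2 lower (6.92%) at that unadjusted p, and again none passed after adjustment. DESeq2, run as an alternative, called 8 members, all higher (2.66% of all genes): Hmgcs1, Mvk, Fdps, Sqle, Msmo1, Nsdhl, Hsd17b7 and Stard4. The 6 genes of uptake, efflux, esterification and LXR had a median of -0.20, 2 above 0 and 4 below, and in none of them did the groups separate. The 6 goblet cell markers, none at 0, summed to 12114, 12979 and 16847 CPM under the Trmt6-/- label, against 8345, 9404 and 12813 CPM in WT, and these sums overlapped. Of the 6, Muc2 and Clca1 separated the groups. Muc2, the main secreted mucin gene, stood at 1770, 1487 and 1600.0 CPM under the Trmt6-/- label, against 945, 839 and 1175 CPM in WT (log2 fold change 0.71 ± 0.23, adjusted p = 0.300 in edgeR). Clca1, another goblet cell product, stood at 1389, 1310 and 1115 CPM under the Trmt6-/- label, against 1095, 801 and 1000.4 CPM in WT (log2 fold change 0.40 ± 0.23, adjusted p = 0.573 in edgeR). Summed smooth muscle markers also separated the groups, at 2.03 to 2.65 CPM under the Trmt6-/- label and 0.782 to 1.43 CPM in WT. Of those 6 genes, only Tagln passed the low-count filter. Summed adipocyte markers lay at 0.169 to 2.03 CPM under the Trmt6-/- label and at 0 to 0.156 CPM in WT. None of these 6 genes passed the filter, no single one separated the groups, and Lep and Cfd had no count. Fabp4 alone gave 1.75 CPM in KO73. Both sums are near the floor, so their separation carries little weight. The part of these cell types in the synthesis values was not tested. In bulk tissue, fewer cells of a type and less RNA per cell cannot be told apart.

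**Figure D1:**
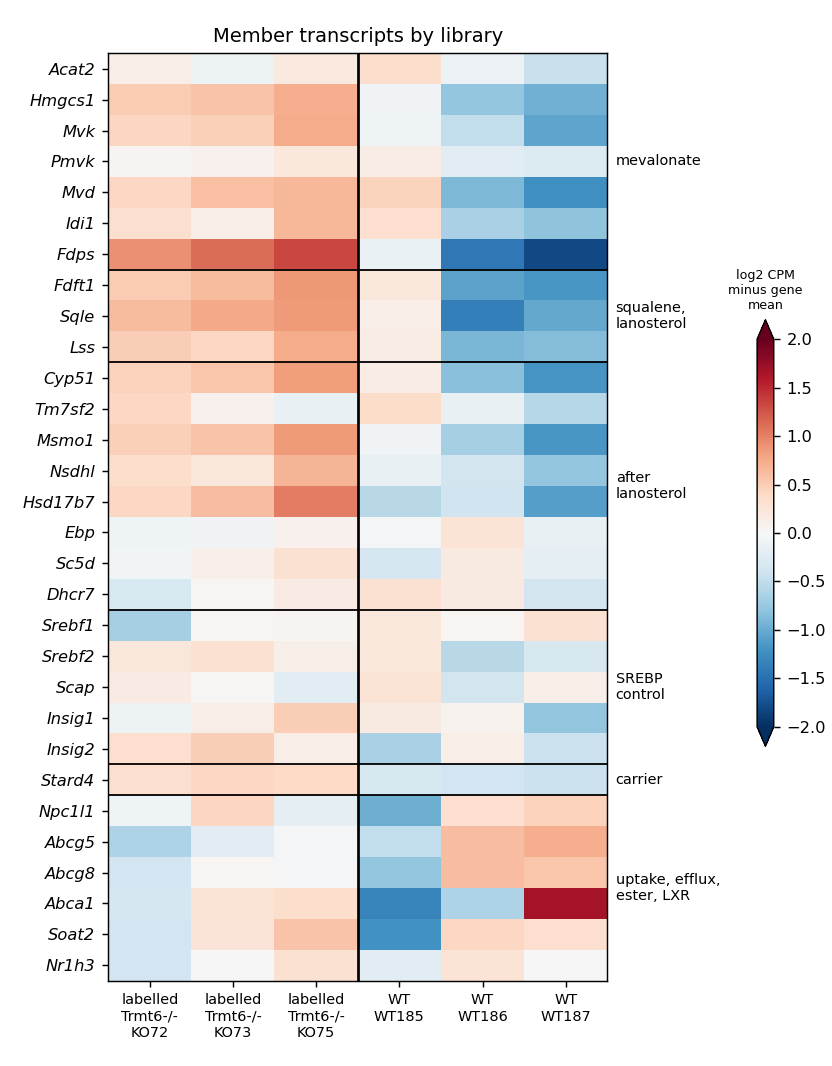
Heat map of the 30 genes (rows, ordered by role) in the 6 libraries (columns), coloured by log2 CPM minus the gene's mean over the 6 libraries. Most rows from Hmgcs1 to Hsd17b7 are red in the 3 columns labelled Trmt6-/-, near white in WT185 and blue in WT186 and WT187, while Npc1l1, Abcg5 and Abcg8 are lowest or near lowest in WT185.

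The mevalonate steps opened the pathway. Hmgcs1 (ENSMUSG00000093930.2; chr13:119690379-119708260, GRCm38), whose cytosolic synthase joins acetyl-CoA to acetoacetyl-CoA, stood at 405.9 (KO72), 425.6 (KO73) and 469.8 CPM (KO75), against 271.2 (WT185), 167.1 (WT186) and 146.7 CPM (WT187) (log2 fold change 1.15 ± 0.26, adjusted p = 0.195). The groups did not overlap, and WT185 came nearest to the libraries labelled Trmt6-/-. Mvk (ENSMUSG00000041939.14; chr5:114444269-114460591), the mevalonate kinase gene, stood at 46.7, 48.1 and 57.9 CPM under the Trmt6-/- label, against 32.6, 24.6 and 16.6 CPM in WT (log2 fold change 1.05 ± 0.26, adjusted p = 0.211), again without overlap. Mvd, which encodes the decarboxylase that yields isopentenyl diphosphate, stood at 53.1, 60.2 and 62.9 CPM under the Trmt6-/- label, against 54.1, 21.3 and 16.8 CPM in WT (log2 fold change 0.93 ± 0.43, adjusted p = 0.458). Here WT185 lay inside the range of the libraries labelled Trmt6-/-, and WT186 and WT187 lay far below it. Idi1, the isopentenyl diphosphate isomerase gene, had the same layout at 85.3, 74.9 and 108.5 CPM under the Trmt6-/- label, against 86.2, 43.3 and 38.9 CPM in WT (log2 fold change 0.67 ± 0.33, adjusted p = 0.495).

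Fdps, whose product builds farnesyl diphosphate, had the largest log2 fold change of the 30 genes and also the lowest level. It stood at 10.5 (KO72), 12.2 (KO73) and 14.2 CPM (KO75), against 5.05 (WT185), 1.98 (WT186) and 1.498 CPM (WT187) (log2 fold change 2.10 ± 0.49, adjusted p = 0.198), without overlap. Its counts are uncertain, because 26.7% of its exon bases were shared with the annotated gene Gm43738, and 6 genes, Gm43738 among them, carried stretches at least 95% identical to its longest transcript. Reads that map to several places or genes were left out of the table. Acat2, the cytosolic thiolase gene at the entry of the pathway, stood at 43.97, 37.5 and 45.8 CPM under the Trmt6-/- label, against 51.2, 36.98 and 29.5 CPM in WT, and 65.6% of its transcript has near-identical stretches in other genes, Acat3 among them. Pmvk, the phosphomevalonate kinase gene, stood at 21.95, 22.4 and 24.5 CPM under the Trmt6-/- label, against 23.5, 18.01 and 17.4 CPM in WT. For both of these genes the groups overlapped, with log2 fold changes of 0.11 ± 0.22 and 0.22 ± 0.18.

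All 3 genes that commit isoprenoids to sterol separated the groups. Sqle (ENSMUSG00000022351.14; chr15:59315077-59331192), the squalene monooxygenase gene and a rate-limiting step after mevalonate, stood at 236.1 (KO72), 256.1 (KO73) and 274.6 CPM (KO75), against 167.4 (WT185), 59.02 (WT186) and 74.8 CPM (WT187) (log2 fold change 1.35 ± 0.39, adjusted p = 0.264). Fdft1, which encodes squalene synthase, stood at 156.2, 170.8 and 201.5 CPM under the Trmt6-/- label, against 129.3, 52.3 and 49.03 CPM in WT (log2 fold change 1.20 ± 0.39, adjusted p = 0.300). Lss, which encodes the cyclase that forms lanosterol, stood at 108.4, 102.5 and 128.8 CPM under the Trmt6-/- label, against 85.03, 40.6 and 42.1 CPM in WT (log2 fold change 1.02 ± 0.31, adjusted p = 0.275). In each of them WT185 lay between the other WT libraries and the libraries labelled Trmt6-/-. Part of the Fdft1 counts is uncertain, since 18.8% of its exon bases were shared with Ctsb on the opposite strand and counting did not use strand. In addition, 54.7% of its longest transcript has near-identical stretches in other genes, Gm6781 and the overlapping Ctsb. The same measure was 33.3% for Idi1, 18.9% for Scap and 16.2% for Hmgcs1, whose counts are uncertain to that extent.

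Among the 8 genes after lanosterol, 4 separated the groups and 4 did not. Hsd17b7 (ENSMUSG00000026675.12; chr1:169949535-169969241), a 3-ketosterol reductase gene, had the smallest unadjusted p of the members (0.000862) and stood at 80.1 (KO72), 93.03 (KO73) and 123.4 CPM (KO75), against 41.01 (WT185), 45.7 (WT186) and 27.9 CPM (WT187) (log2 fold change 1.37 ± 0.25, adjusted p = 0.140). Its lowest library labelled Trmt6-/- was well above its highest WT library, and here WT185 did not stand out from WT186 and WT187. Msmo1 (ENSMUSG00000031604.10; chr8:64718139-64733792), the C4-methylsterol oxidase gene, stood at 229.9, 247.8 and 299.6 CPM under the Trmt6-/- label, against 157.9, 104.7 and 74.1 CPM in WT (log2 fold change 1.21 ± 0.29, adjusted p = 0.210). Nsdhl, the dehydrogenase gene of the same demethylation complex, stood at 57.8, 52.9 and 72.7 CPM under the Trmt6-/- label, against 40.9, 35.1 and 26.4 CPM in WT (log2 fold change 0.84 ± 0.21, adjusted p = 0.218). Cyp51 (ENSMUSG00000001467.5; chr5:4081145-4104746), the lanosterol 14-alpha-demethylase gene, stood at 244.1, 260.4 and 317.5 CPM under the Trmt6-/- label, against 196.3, 99.4 and 78.3 CPM in WT (log2 fold change 1.14 ± 0.35, adjusted p = 0.281). These 4 genes separated the groups without overlap. The other 4 did not. Ebp, the sterol isomerase gene, stood at 61.7, 63.0 and 69.5 CPM under the Trmt6-/- label, against 63.8, 79.1 and 59.4 CPM in WT, with the highest value in a WT library. Sc5d, the sterol C5-desaturase gene, stood at 130.7, 145.5 and 166.96 CPM under the Trmt6-/- label, against 107.3, 153.5 and 119.9 CPM in WT. Dhcr7, whose reductase makes cholesterol from 7-dehydrocholesterol, stood at 65.6, 83.2 and 91.4 CPM under the Trmt6-/- label, against 100.2, 91.6 and 62.99 CPM in WT. Tm7sf2, a sterol C14-reductase gene, stood at 35.4, 28.3 and 24.1 CPM under the Trmt6-/- label, against 34.2, 23.9 and 17.9 CPM in WT. The log2 fold changes of Ebp, Sc5d, Dhcr7 and Tm7sf2 were -0.06 ± 0.15, 0.22 ± 0.19, -0.09 ± 0.22 and 0.21 ± 0.27, and their groups overlapped.

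**Figure D2:**
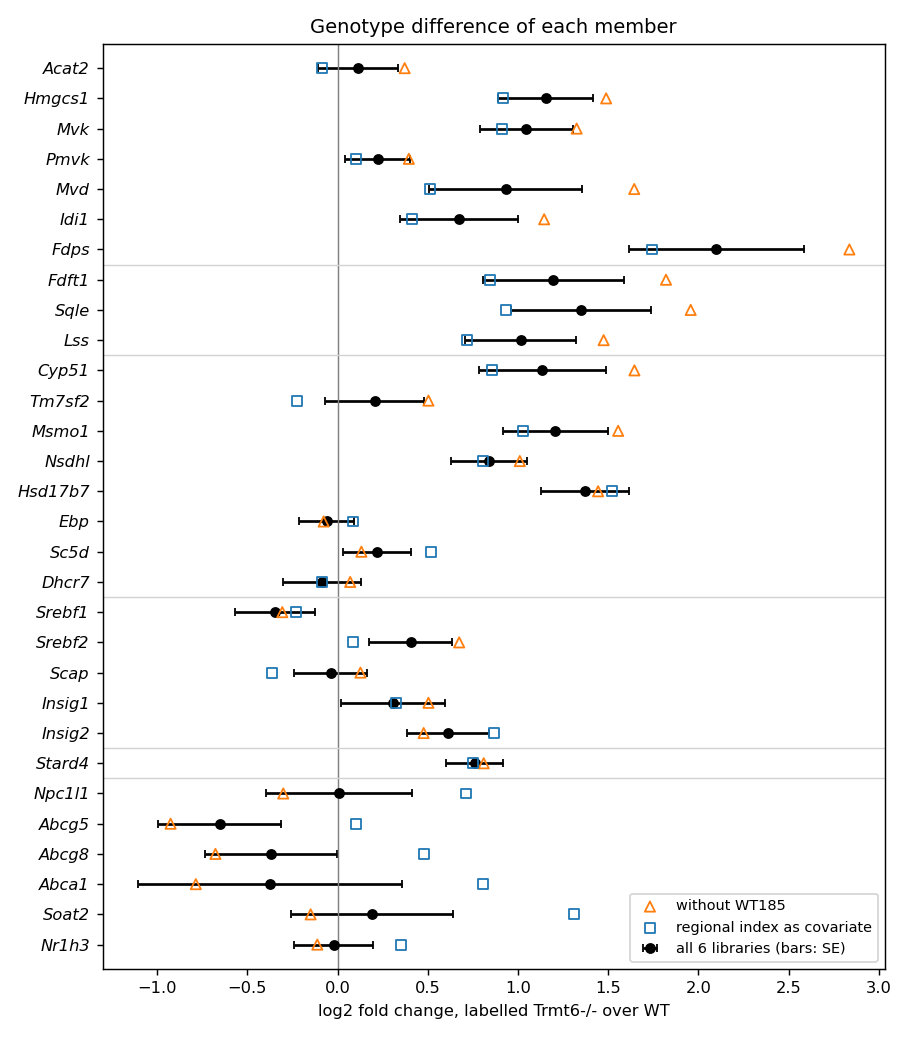
Log2 fold change of each gene, libraries labelled Trmt6-/- over WT, from all 6 libraries (black, bars are SE), without WT185 (orange triangles) and with the regional index as a covariate (blue squares). Fdps lies farthest right at 2.10, the black points of the last 6 genes lie between -0.65 and 0.19, and their blue squares lie between 0.10 and 1.31.

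Motif letters in the promoters were compared because the synthesis genes varied together from library to library. RefSeq windows on GRCm38.p6, from 250 bases before to 50 after the start, were found for 25 of the 30 genes. CCAAT, the letters bound by NF-Y, was present on either strand in 14 of the 15 synthesis genes with a window, against 41.1% of all 27025 genes with a window and 42.7% of the tested genes with one. Pmvk and Dhcr7 have several windows, and each was searched. CCAAT was found in 3 of 5 uptake and efflux genes with a window. The GC box GGGCGG was present in 14 of the 15 synthesis genes and 1 of the 5, against 66.5% of the tested genes. The E-box CACGTG was present in 3 of the 15 (11.4% of the tested genes). The core of the sterol regulatory element, TCACNCCAC, was found in Hmgcs1 alone of the 25, and in 1.44% of all genes with a window. No matches of different motifs overlapped in these windows. A match is a run of letters and shows no binding. A missing match does not show that a gene lacks the element, since variants of the letters were not searched. Fdps, Fdft1, Sqle, Stard4 and Soat2 had no window and were not searched at all. CCAAT was not limited to genes that separated the groups. Among genes whose groups overlapped, it was found in Pmvk, Mvd, Idi1, Tm7sf2, Ebp, Sc5d and Dhcr7. Srebf1, Srebf2, Insig1, Npc1l1, Abcg5 and Abcg8 also overlapped and had it, whereas Acat2, Scap, Abca1 and Nr1h3 had no match. The 180 bases before the start are printed for the synthesis genes that separated the groups and have a single window. CCAAT (or ATTGG on the other strand) and the sterol element are in capitals. Abca1 is printed as well and has neither.
Hmgcs1 (chr13:119690171-119690350, plus strand): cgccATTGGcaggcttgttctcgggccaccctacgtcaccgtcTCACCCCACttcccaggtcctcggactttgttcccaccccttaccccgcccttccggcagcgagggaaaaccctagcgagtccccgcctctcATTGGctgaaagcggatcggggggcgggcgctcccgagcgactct
Mvk (chr5:114444089-114444268, plus strand): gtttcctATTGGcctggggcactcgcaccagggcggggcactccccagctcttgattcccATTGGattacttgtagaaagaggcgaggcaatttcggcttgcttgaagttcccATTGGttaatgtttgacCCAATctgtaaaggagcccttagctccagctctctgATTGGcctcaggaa
Lss (chr10:76531425-76531604, plus strand): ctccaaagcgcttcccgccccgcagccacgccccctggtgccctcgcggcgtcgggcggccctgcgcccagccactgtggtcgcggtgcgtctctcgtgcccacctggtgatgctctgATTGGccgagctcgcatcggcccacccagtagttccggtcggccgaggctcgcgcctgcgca
Cyp51 (chr5:4104698-4104877, minus strand): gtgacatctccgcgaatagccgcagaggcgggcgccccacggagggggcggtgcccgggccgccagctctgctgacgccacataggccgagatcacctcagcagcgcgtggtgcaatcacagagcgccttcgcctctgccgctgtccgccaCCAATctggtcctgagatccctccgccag
Msmo1 (chr8:64733579-64733758, minus strand): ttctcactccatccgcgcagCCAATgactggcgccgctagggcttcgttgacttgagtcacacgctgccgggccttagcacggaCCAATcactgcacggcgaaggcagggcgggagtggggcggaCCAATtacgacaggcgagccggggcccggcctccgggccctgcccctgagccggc
Nsdhl (chrX:72918341-72918520, plus strand): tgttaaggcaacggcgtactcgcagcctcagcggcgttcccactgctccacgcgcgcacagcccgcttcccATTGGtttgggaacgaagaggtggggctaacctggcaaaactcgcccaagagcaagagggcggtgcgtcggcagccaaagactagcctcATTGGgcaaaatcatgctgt
Hsd17b7 (chr1:169969206-169969385, minus strand): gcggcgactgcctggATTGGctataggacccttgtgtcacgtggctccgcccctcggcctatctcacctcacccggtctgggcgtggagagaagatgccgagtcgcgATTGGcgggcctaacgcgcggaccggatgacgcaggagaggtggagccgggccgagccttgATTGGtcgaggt
Abca1 (chr4:53159896-53160075, minus strand): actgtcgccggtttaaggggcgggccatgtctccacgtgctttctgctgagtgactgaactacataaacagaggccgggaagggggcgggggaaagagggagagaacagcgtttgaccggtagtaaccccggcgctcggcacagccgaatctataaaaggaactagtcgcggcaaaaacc
In these stretches Mvk has 5 CCAAT matches, Msmo1 and Hsd17b7 have 3 each, Hmgcs1 and Nsdhl have 2 each, and Lss and Cyp51 have 1 each.

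**Figure D3:**
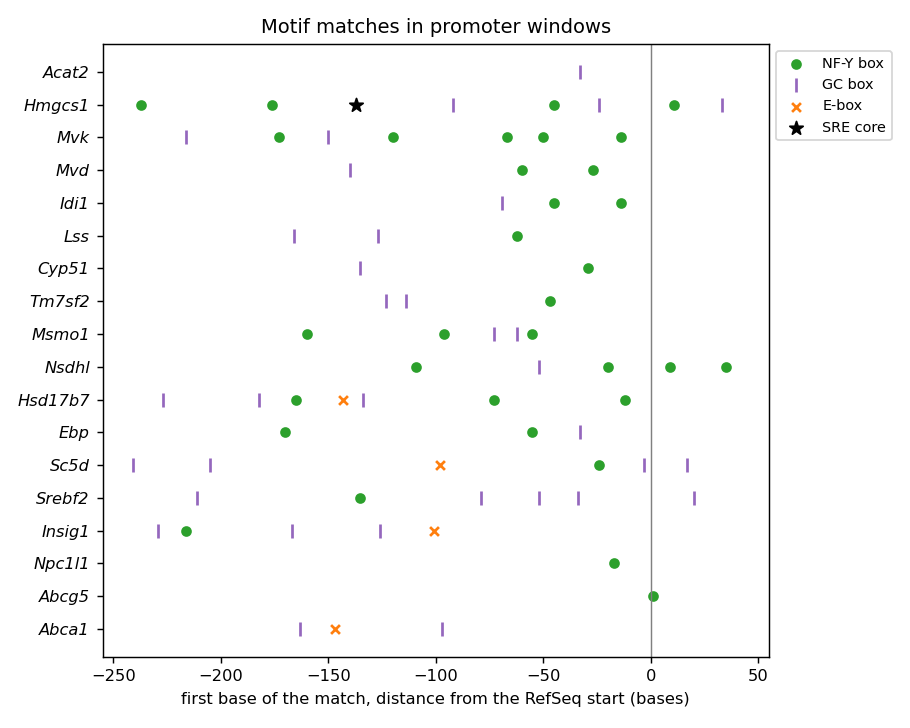
Position of each motif match in the promoter windows of the genes with a single window; the x axis is the distance in bases of the first base of the match from the RefSeq start, and each row is a gene. The green points of the NF-Y box fall in every synthesis row but Acat2, and the star of the sterol element stands at -137 in Hmgcs1.

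Of the 5 control genes, 1 separated the groups. Insig2 (ENSMUSG00000003721.14; chr1:121304353-121332589), which encodes an endoplasmic reticulum anchor of SCAP, stood at 50.004 (KO72), 56.2 (KO73) and 43.6 CPM (KO75), against 25.3 (WT185), 43.3 (WT186) and 29.4 CPM (WT187) (log2 fold change 0.61 ± 0.23, adjusted p = 0.359). Its groups just cleared each other, with KO75 at 43.6 and WT186 at 43.3 CPM. Srebf2, which encodes the factor that acts mainly on sterol synthesis, stood at 339.4, 357.4 and 314.1 CPM under the Trmt6-/- label, against 334.6, 197.2 and 231.9 CPM in WT (log2 fold change 0.40 ± 0.23, adjusted p = 0.567). WT185 reached the level of the libraries labelled Trmt6-/-, so the groups overlapped. Srebf1, whose products act mainly on fatty acid synthesis, stood at 105.5, 170.9 and 172.8 CPM under the Trmt6-/- label, against 194.8, 171.4 and 205.04 CPM in WT (log2 fold change -0.35 ± 0.22, adjusted p = 0.615). Insig1, the sterol-responsive anchor gene and an SREBP target, stood at 125.2, 147.02 and 188.7 CPM under the Trmt6-/- label, against 152.8, 141.7 and 77.8 CPM in WT (log2 fold change 0.31 ± 0.29, adjusted p = 0.754). Scap stood at 64.96, 59.1 and 50.4 CPM under the Trmt6-/- label, against 70.8, 45.03 and 63.2 CPM in WT (-0.04 ± 0.20). The levels of these mRNAs do not show how much SREBP was cleaved.

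Stard4 (ENSMUSG00000024378.9; chr18:33199355-33213862), which encodes a carrier that moves cholesterol between membranes and is itself an SREBP target, had the tightest groups of the members. It stood at 469.7 (KO72), 502.9 (KO73) and 498.7 CPM (KO75), against 300.4 (WT185), 287.98 (WT186) and 280.02 CPM (WT187) (log2 fold change 0.76 ± 0.16, adjusted p = 0.180). The coefficient of variation was 3.69% under the Trmt6-/- label and 3.55% in WT, and the lowest value under the Trmt6-/- label (470 CPM) stood well above the highest in WT (300 CPM). WT185 did not stand apart, and the log2 fold change with the regional index as a covariate was 0.75. The gene passed DESeq2 (adjusted p = 2.1e-07) and not edgeR, whose lowest adjusted p for it over the alternatives was 0.104.

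In all 6 genes of uptake, efflux, esterification and LXR signalling the groups overlapped. Npc1l1 (ENSMUSG00000020447.5; chr11:6211013-6230143), the transporter gene that brings dietary and biliary cholesterol into enterocytes, stood at 918.7 (KO72), 1309 (KO73) and 853.9 CPM (KO75), against 495.3 (WT185), 1231 (WT186) and 1340.5 CPM (WT187) (log2 fold change 0.01 ± 0.41, adjusted p = 0.997). The lowest and the highest library were both WT. Abcg5 (ENSMUSG00000040505.13; chr17:84658234-84683011), one of the paired transporter genes that return sterol to the lumen, stood at 156.9 (KO72), 208.5 (KO73) and 233.4 CPM (KO75), against 171.3 (WT185), 369.9 (WT186) and 400.2 CPM (WT187) (log2 fold change -0.65 ± 0.34, adjusted p = 0.527). Abcg8, its partner gene next to it in the opposite orientation, stood at 173.7, 232.9 and 223.5 CPM under the Trmt6-/- label, against 132.03, 347.3 and 334.3 CPM in WT (log2 fold change -0.37 ± 0.37, adjusted p = 0.770). WT186 and WT187 were the highest libraries for both, and WT185 stood with or below the libraries labelled Trmt6-/-. Without WT185 their log2 fold changes were -0.93 (unadjusted p = 0.00539, adjusted p = 0.178) and -0.68 (unadjusted p = 0.0137, adjusted p = 0.238). With the regional index as a covariate they were 0.10 and 0.48, so the direction turned.

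Soat2, which encodes the enterocyte enzyme that esterifies absorbed cholesterol, stood at 199.5, 311.9 and 385.5 CPM under the Trmt6-/- label, against 112.1, 347.4 and 325.9 CPM in WT (log2 fold change 0.19 ± 0.45, adjusted p = 0.919). Adding the regional index as a covariate gave 1.31 (unadjusted p = 0.00163, adjusted p = 0.0836). Abca1, whose product exports cholesterol to apolipoproteins, stood at 32.3, 49.6 and 51.95 CPM under the Trmt6-/- label, against 16.2, 26.5 and 130.5 CPM in WT (log2 fold change -0.37 ± 0.73, adjusted p = 0.897). Its WT mean rests on WT187, and without that library the log2 fold change turned to 1.06 (adjusted p = 0.410). The 10 macrophage markers summed to 14.04 to 22.3 CPM under the Trmt6-/- label and to 14.02 to 27.3 CPM in WT, and the 10 T and NK cell markers to 81.4 to 704 CPM under the Trmt6-/- label and to 259 to 974 CPM in WT, with WT187 highest in both lists. Their part in the Abca1 values was not tested. Nr1h3 stood at 41.6, 54.5 and 67.04 CPM under the Trmt6-/- label, against 46.4, 65.4 and 53.9 CPM in WT (-0.02 ± 0.22).

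Set side by side, synthesis and uptake ran in different orders over the libraries. The 18 synthesis genes summed to 2074, 2184 and 2554 CPM under the Trmt6-/- label, against 1647, 1098 and 900.4 CPM in WT. Each library labelled Trmt6-/- was above each WT library. The 6 uptake, efflux, esterification and LXR genes summed to 1523, 2167 and 1815 CPM under the Trmt6-/- label, against 973, 2387 and 2585 CPM in WT, and these groups overlapped. Per exon length (RPKM, CPM divided by exon length in kilobases), the summed synthesis level over the summed level of those 6 genes came to 1.15, 0.844 and 1.09 under the Trmt6-/- label, against 1.42, 0.391 and 0.306 in WT. WT185 had the highest ratio of the 6 libraries, and the groups overlapped, at 1.03 ± 0.162 under the Trmt6-/- label and 0.705 ± 0.618 in WT (SD, n = 3 each). The median log2 fold change of the synthesis genes was 1.38 without WT185, 0.74 without WT187 and 0.76 with the regional index as a covariate. The median of the 6 uptake and efflux genes was 0.60 with that covariate. The index itself averaged -1.35 under the Trmt6-/- label and -5.04 in WT. It was thus partly aligned with the label, and in 6 libraries gut position and label cannot be told apart.

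**Figure D4:**
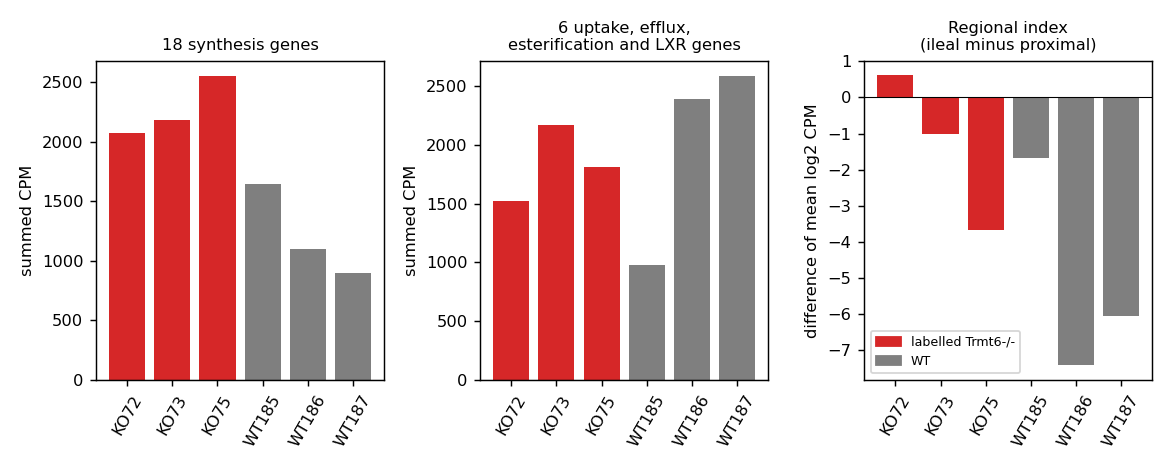
Bars give, for each library (libraries labelled Trmt6-/- in red, WT in grey), the summed CPM of the 18 synthesis genes, the summed CPM of the 6 uptake, efflux, esterification and LXR genes, and the regional index. The red bars of the first panel run from 2074 to 2554 and the grey ones from 900.4 to 1647, while in the middle panel WT185 is lowest at 973.

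Within groups the synthesis genes were more even in the libraries labelled Trmt6-/- than in WT. The coefficient of variation over 3 libraries was lower in the libraries labelled Trmt6-/- for all 18 synthesis genes, a direction shown by 60.4% of all genes tested. Its median over the 18 was 12.7% in the libraries labelled Trmt6-/- and 33.4% in WT, where all genes tested had medians of 19.0% in the libraries labelled Trmt6-/- and 24.8% in WT. The highest value among the 18 was 22.5% in the libraries labelled Trmt6-/- and 67.8% in WT. WT185 was the highest WT library for 15 of the 18, against 37.3% of all genes tested, and WT187 was the lowest of all 6 libraries for 15 of them, against 8.83%. KO75 was the highest of the 6 for 14 of the 18, against 16.4%. The 18 genes share the same 6 libraries and are not independent.

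Per exon length, the transporter gene Npc1l1 had the highest mean level of the 30 genes. RPKM averaged 229.4 over the 6 libraries for Npc1l1, 126.7 for Soat2, 94.7 for Abcg5 and 64.2 for Abcg8. Stard4 at 69.8 and Hmgcs1 at 68.4 RPKM were the highest outside that group, followed by Cyp51 at 45.1, Insig1 at 44.9 and Srebf2 at 41.2 RPKM. Fdps was lowest at 1.796 RPKM, then Abca1 at 4.94 and Tm7sf2 at 6.20 RPKM. Exon length sums every annotated exon of a gene, so a gene with many minor exons, such as Lss at 10787 bases, reads low on this scale.

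**Figure D5:**
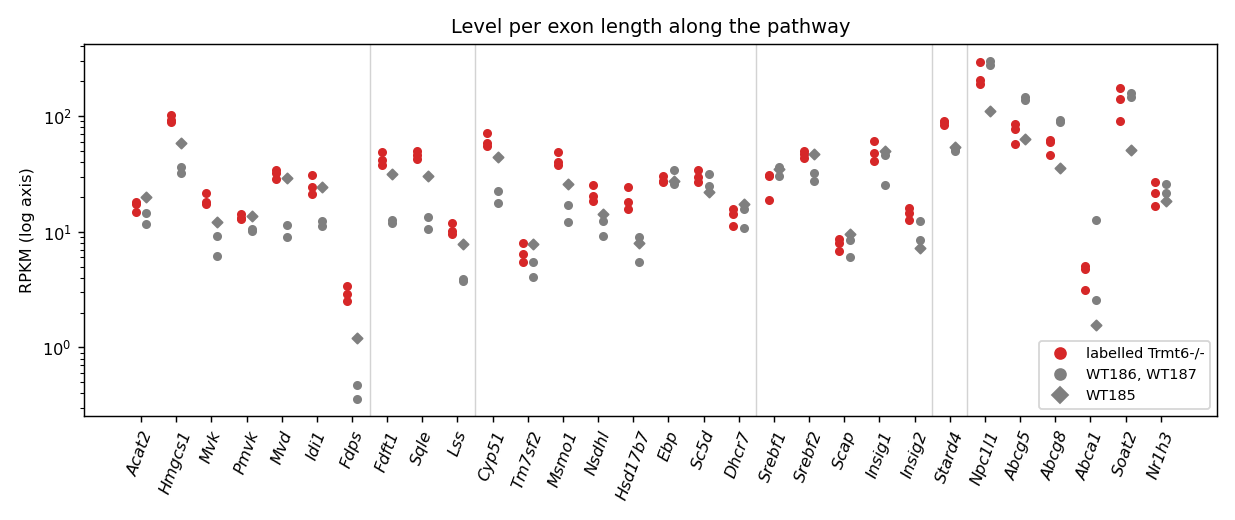
RPKM (log axis) of each gene in every library, ordered by role; red points are libraries labelled Trmt6-/- and grey points are WT, with WT185 as a diamond. From Fdft1 to Lss the red points lie above the grey ones and the diamond lies between, and Npc1l1 averages highest at 229.4 RPKM.

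None of the other genes of the sterol system listed here passed an adjusted p of 0.05 in edgeR. Of 12 tested genes of SREBP processing and sterol sensing, 5 had a log2 fold change above 0 (median -0.06). Mbtps2, which encodes the site-2 protease that frees SREBP, stood at 38.6, 31.2 and 28.04 CPM under the Trmt6-/- label, against 20.9, 22.7 and 18.4 CPM in WT (log2 fold change 0.66 ± 0.18, adjusted p = 0.251), without overlap. Sec24b, a COPII coat gene, stood at 64.8, 60.6 and 60.7 CPM under the Trmt6-/- label, against 68.4, 78.9 and 72.1 CPM in WT (log2 fold change -0.24 ± 0.12, adjusted p = 0.527), and Sec23a, the most abundant of the list, at 320.4 ± 99.2 CPM in the libraries labelled Trmt6-/- and 341.7 ± 185.8 CPM in WT (SD, n = 3 each). Of 17 tested genes listed for the fatty acid arm of the SREBP programme, 6 were above 0 and 11 below (median -0.34). This list also holds Aacs, Pcyt2 and Tmem97, which are not fatty acid synthesis enzymes. Fads1, a fatty acid desaturase gene, stood at 24.2, 25.4 and 7.26 CPM under the Trmt6-/- label, against 78.6, 33.2 and 40.2 CPM in WT (log2 fold change -1.42 ± 0.53, adjusted p = 0.351), without overlap and with the libraries labelled Trmt6-/- lower. Acss2, the cytosolic acetyl-CoA synthetase gene, stood at 44.2, 38.7 and 32.7 CPM under the Trmt6-/- label, against 65.8, 60.7 and 42.4 CPM in WT (log2 fold change -0.55 ± 0.21, adjusted p = 0.370). Pcyt2, an enzyme gene of phosphatidylethanolamine synthesis and the most abundant of the list, stood at 248.7, 404.4 and 496.4 CPM under the Trmt6-/- label, against 218.01, 503.1 and 334.3 CPM in WT.

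The 11 genes of the isoprenoid branch after Fdps had a median of 0.02, with 6 above 0. Nus1, a subunit gene of the dolichol-forming transferase, stood at 144.9, 154.6 and 175.6 CPM under the Trmt6-/- label, against 114.7, 130.04 and 129.2 CPM in WT (log2 fold change 0.34 ± 0.15, adjusted p = 0.418), and Fntb, a farnesyltransferase subunit gene, at 24.6, 26.4 and 25.8 CPM under the Trmt6-/- label, against 22.6, 18.5 and 20.8 CPM in WT (log2 fold change 0.31 ± 0.15, adjusted p = 0.507). Both separated the groups by small margins. Of 6 LXR targets outside the members, 2 were above 0 (median -0.29). Lpcat3, a phospholipid remodelling enzyme gene, stood at 322.03, 464.5 and 571.6 CPM under the Trmt6-/- label, against 232.1, 376.3 and 292.7 CPM in WT (log2 fold change 0.59 ± 0.28, adjusted p = 0.484), and Mylip, a ubiquitin ligase gene, at 13.1, 14.3 and 6.83 CPM under the Trmt6-/- label, against 4.43, 1.23 and 8.57 CPM in WT (log2 fold change 1.26 ± 0.65, adjusted p = 0.521). Of 13 genes of intracellular sterol traffic and storage, 5 were above 0 (median -0.08). Scarb1, the high-density lipoprotein receptor gene, stood at 1.35, 1.68 and 1.92 CPM under the Trmt6-/- label, against 6.67, 50.96 and 2.34 CPM in WT (log2 fold change -3.59 ± 1.12, adjusted p = 0.281), a difference carried largely by WT186. Stard3, a late endosomal sterol transfer gene, stood at 47.2, 55.2 and 68.5 CPM under the Trmt6-/- label, against 40.9, 38.3 and 42.1 CPM in WT (log2 fold change 0.50 ± 0.17, adjusted p = 0.321), without overlap. Osbp, an oxysterol-binding protein gene and the most abundant of the list, stood at 134.7, 155.2 and 171.4 CPM under the Trmt6-/- label, against 148.1, 191.1 and 149.2 CPM in WT.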

How the data were processed

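RNA-seq of intestinal tissue was deposited as raw counts per gene, made with featureCounts 2.0.1 on GENCODE M23 per the file headers, with no strand, multimapping or overlap option in the command. The submitters' processing notes name fastp, HISAT2 and mm10. The deposited length column (gene length in bases) served only for RPKM. Symbols were matched through GENCODE M21, also GRCm38 (55154 of 55335 identifiers). Column names give a group and a number that is not a replicate number of the labels, and were assigned to groups by name. After filterByExpr and TMM scaling, genes went into the two-sided quasi-likelihood F test of edgeR 4.0.16 (R 4.3.3), genotype as the only term, with Benjamini-Hochberg adjustment over 14107 genes. The script was tested on simulated data. The SE is the log2 fold change divided by the square root of F. Within groups, log2 CPM correlated at 0.933 to 0.973, and no libraries were duplicates (chi-square per degree of freedom at least 49.4). Depth was 15213972 to 16972758 counts per library; PCR duplicates without molecular identifiers mean that counting error understates the error. Members, gene lists and motifs were chosen with earlier results of these data known. Described in full were, per role group, the members with the 4 smallest p and the highest RPKM; from each outside list, the 2 smallest p and the highest CPM. Sequences are from RefSeq (GRCm38.p6). Alternatives were other scalings and filters, DESeq2 1.42.0, limma-voom (limma 3.58.1), the regional index as covariate and each library left out.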

Additional observations from a re-analysis of the deposited data

How the results depend on the processing

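No paired analysis was possible because the count columns carry no replicate number of the labels. The count of genes called was 6 and became 0 with library totals, limma-voom or the regional index, 159 without a low-count filter, 633 with DESeq2 and 0 to 6 with a library left out. The count of members called was 0 in edgeR and became 1 (Hsd17b7, adjusted p = 0.0270) without a low-count filter and 8 with DESeq2, and was 0 with each library left out; at an unadjusted p below 0.05 the edgeR fit held 12 members, all higher in the libraries labelled Trmt6-/-, and 10 to 14 higher with a library left out. The synthesis median was 0.74 to 1.38 with a library left out and kept its sign under every alternative run. The uptake, efflux, esterification and LXR median turned to 0.028 with limma-voom and 0.60 with the regional index, and ran from -0.49 to 0.10 with a library left out. With the regional index the log2 fold change turned sign for Acat2 (-0.086), Tm7sf2 (-0.22), Ebp (0.084), Abcg5 (0.10), Abcg8 (0.48), Abca1 (0.81) and Nr1h3 (0.35). It also turned for Npc1l1 with library totals (-0.035) and Abca1 with limma-voom (0.19). With a library left out the log2 fold change ran from -0.074 to 0.37 for Acat2, -0.011 to 0.50 for Tm7sf2, -0.15 to 0.082 for Ebp, -0.28 to 0.070 for Dhcr7, -0.20 to 0.13 for Scap, -0.30 to 0.25 for Npc1l1, -0.79 to 1.06 for Abca1, -0.15 to 0.47 for Soat2 and -0.19 to 0.15 for Nr1h3. None of these genes was called, and the cause of these turns was not tested. On depth, the members other than Fdps had at least 264 counts in every library, and Fdps had at least 25.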

Other observations

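Most genes listed for the fatty acid arm of the SREBP programme peaked in another library than most sterol synthesis genes. WT185 was the highest of the 6 libraries for 11 of the 17 tested genes of that list, against 20.5% of all genes tested. It was the highest for 2 of the 18 sterol synthesis genes. The 11 include Aacs (121.5 CPM in WT185) and Tmem97 (88.6 CPM in WT185), which are not fatty acid synthesis enzymes. Fasn, the fatty acid synthase gene, stood at 245.0 (KO72), 185.9 (KO73) and 201.6 CPM (KO75), against 438.7 (WT185), 145.1 (WT186) and 230.5 CPM (WT187). Acly, which encodes the enzyme that makes cytosolic acetyl-CoA from citrate, stood at 120.8, 122.9 and 109.4 CPM under the Trmt6-/- label, against 200.9, 67.3 and 100.03 CPM in WT. Scd2, a stearoyl-CoA desaturase gene, stood at 238.1, 241.7 and 45.3 CPM under the Trmt6-/- label, against 1089, 96.3 and 312.9 CPM in WT. For these 3 genes the groups overlapped, and the adjusted p was 0.790 for Fasn, 0.972 for Acly and 0.603 for Scd2. The pattern was noticed after the values were seen and compares single libraries, so it carries no test.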
